A study of Rattus norvegicus with 30 samples.

Results

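mRNA levels of the thalamus were compared with those of the hippocampus in 5 sham-operated rats, with both brain areas taken, by the labels, from the same animals. These are 10 of the 30 mRNA-seq libraries of a series on traumatic brain injury (TBI), which sampled the perilesional cortex, thalamus and hippocampus of 5 sham-operated rats (rats 1 to 5) and 5 rats with TBI (rats 6 to 10). The members are all thalamic and all hippocampal libraries of rats 1 to 5, paired by rat number, and no library of these groups was left out of the main comparison. All animals were adult male Sprague-Dawley rats that weighed 330 to 371 g at the operation and were killed 3 months later. Sham-operated animals went through anaesthesia and a craniectomy over the left parietal lobe without the fluid pressure pulse of lateral fluid-percussion injury, so they are operated controls and not naive rats. The tissue named hippocampus here was cut from 2 mm coronal slices as the dentate gyrus with the adjoining CA3c-b, whereas the sample labels call it dorsal hippocampus. The thalamus was dissected from the same slices, and a figure legend of the paper calls the thalamus and hippocampus ipsilateral.

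The thalamus passes sensory and motor signals to the cortex. It is built mainly of excitatory relay neurons that project to the cortex, with inhibitory neurons gathered in the reticular nucleus at its outer shell. The dentate gyrus is packed with excitatory granule cells, whose mossy fibers reach the pyramidal cells of CA3, and this circuit is known for its part in forming memories. The thalamus arises from the diencephalon of the embryo, and the hippocampus arises, like the neocortex, from the telencephalon.

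The deposited tables list 26404 genes by Ensembl identifier without names, and the gene table used here paired none of them with a symbol. Genes are therefore described by their number, level and difference, and 4 are given by identifier. For the same reason, the labelled areas could not be checked against the genes that define them, and no sequence is shown. In a piece of tissue, a lower level can come from fewer cells of a type or from less RNA per cell, and these cannot be told apart here.

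Total counts were 23572002 to 30343544 in the thalamic libraries (median 25968452) and 23903839 to 29536124 in the hippocampal libraries (median 25628557). The thalamic library was the larger in 3 of 5 pairs (two-sided exact permutation test over the 32 sign arrangements, p = 0.75, adjusted p = 0.75 over 3 library measures). With 5 pairs this test cannot go below 0.0625, so it cannot show a difference at 0.05. According to the methods of the paper, the thalamus was read on an Illumina HiSeq with longer reads, and the cortex and hippocampus on a Genome Analyzer IIx, while the labels give a single instrument and read length for every library. If the methods hold, sequencing and brain area cannot be told apart in any result below. No library was a copy of another, since the chi-square per degree of freedom between libraries of an area was 24.2 or more in the thalamus and 24.5 or more in the hippocampus.

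The hippocampal libraries were less alike in the share of reads that few genes took. The 10 most counted genes of each library held 6.75%, 9.13%, 6.32%, 7.74% and 8.58% of the counts in the thalamus of rats 1 to 5, and 16.4%, 15.1%, 16.1%, 44.1% and 40.9% in the hippocampus. The share was lower in the thalamus in 5 of 5 pairs, and the hippocampal libraries of rats 4 and 5 stood far above those of rats 1 to 3. The mean was 7.70 ± 1.19% in the thalamus and 26.5 ± 14.6% in the hippocampus (SD, n = 5 each). The exact permutation p of 0.0625 (adjusted p = 0.188) is the smallest that 5 pairs allow. Outside their 10 most counted genes, these hippocampal libraries still held 13939389 and 15151078 counts. Levels are given in CPM, which are counts scaled to the size of the library. These libraries had at least 1 CPM at 13920 and 14090 genes, against 15027 ± 89.4 genes in the thalamus (SD, n = 5) and 14758.8 ± 701 in the whole hippocampal group (SD, n = 5, exact permutation p = 0.4375, adjusted p = 0.656). The paper's methods set aside a pair of hippocampal libraries, both from sham-operated rats, for low alignment. They do not name the rats, so libraries that the paper did not use are among the 5 hippocampal ones that were all kept here. Whether they are those of rats 4 and 5 was not tested, and the results without these rats are given below.

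The genes behind these shares were mostly the same in the hippocampal libraries. Of the 10 most counted genes of hippocampal rat 4, 9, 5, 9 and 10 were also among the 10 most counted in hippocampal rats 1, 2, 3 and 5. In the thalamus, 1 of them reached the 10 most counted genes of rat 4, and none did so in the other thalamic libraries. These 10 genes took 13.4% to 44.1% of the counts in the sham hippocampus and 13.97% to 28.8% in the sham cortex, but 0.515% to 1.49% in the sham thalamus. A wider set of 73 genes was at least 4-fold higher in the mean of hippocampal rats 4 and 5 than in that of rats 1 to 3, at 5 CPM or more. This set was chosen after its values were seen. It holds repeats, since the counts of 38 of the 73 genes kept a constant ratio (within 1.5-fold) to those of another member over the 10 sham libraries, which leaves 46 separate patterns. The 10 most counted genes of hippocampal rat 4 formed 4 such patterns. Whether a read was counted on more than 1 of these genes is not given in the sources used here, so their number and summed share may hold the same signal more than once. The set held 19.7%, 17.1%, 20.03%, 56.7% and 55.0% of the counts in the hippocampus of rats 1 to 5, 17.1% to 35.5% in the sham cortex and 0.674% to 1.79% in the sham thalamus. Of these genes, 70 had a mean of at least 1 CPM in the sham cortex. In the rats with TBI, the set took 8.85% to 18.5% of the hippocampal and 0.609% to 1.93% of the thalamic counts. Even in hippocampal rats 1 to 3, where the set had not risen, its share was therefore above that of every thalamic library. By the test given below, 72 of the 73 genes were higher in the hippocampus (32.9% of all tested genes were) and 0 in the thalamus, a count that the choice of the set on these hippocampal libraries largely fixes. The counts of called, 2-fold and 64-fold genes, the area-restricted genes and the identifiers are given below also without this set or these rats.

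**Figure D1:**
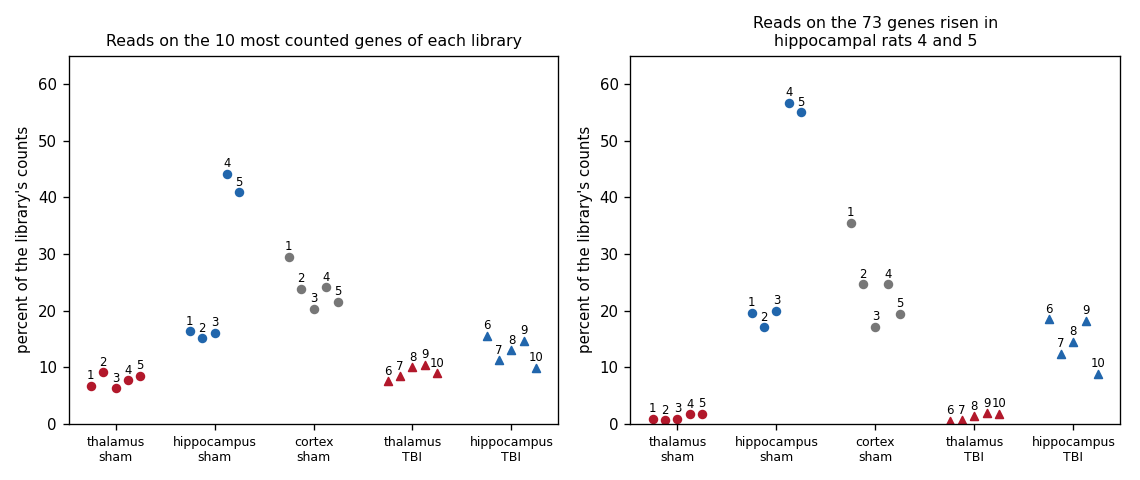
Share of each library's counts, in percent, that fell on its own 10 most counted genes (left) and on the 73 genes that were at least 4-fold higher in hippocampal rats 4 and 5 (right), by brain area and treatment. Each point is 1 library with its rat number, circles are sham and triangles TBI. The sham thalamic libraries lie below all sham hippocampal and cortical ones in both plots, and hippocampal rats 4 and 5 stand at 44.1% and 40.9% on the left and at 56.7% and 55.0% on the right.

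A second check bears on the identity of a library. At 89 genes whose levels part the rats in the same way in the cortex and thalamus (correlation above 0.8 over 10 rats, a range of over 1 on the log2 scale in each area, and group means of sham and TBI less than 1 apart), 8 of 10 hippocampal libraries were most like their own rat, with correlations of 0.57 to 0.685 over these genes. The library labelled rat 3 was most like rat 8, a rat with TBI (0.675, against -0.329 with its own rat), and the library labelled rat 8 was most like rat 3 (0.632 against -0.146). The labels were kept. Without rat 3 in either area, 4773 genes were higher in the thalamus and 5207 in the hippocampus, close to the counts with all rats below.

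Most of the expressed genes differed between the thalamus and hippocampus. Of 16748 genes tested, 10910 (65.1%) passed edgeR's quasi-likelihood test with the rat as a block (adjusted p under 0.05), of which 5397 (32.2%) were higher in the thalamus and 5513 (32.9%) in the hippocampus. Without adjustment, 11431 genes had a p under 0.05. All 5 thalamic libraries lay above or below all 5 hippocampal libraries for 8707 genes (52.0%), with 4447 (26.6%) higher in the thalamus and 4260 (25.4%) higher in the hippocampus. The edgeR biological coefficient of variation between rats was 0.173. Since sequencing may differ between the areas, the p-values measure these differences against the spread between rats and not against the effect of the instrument.

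The called genes split about evenly by direction, and the larger differences did not. TMM scaling centres the fold changes, so the even split and a median near 0 are largely set by it: 49.5% of the calls were higher in the thalamus here, 46.7% under upper quartile scaling and 45.5% without a filter on low counts. The median log2 fold change (thalamus over hippocampus) over all tested genes was 0.01, over the genes higher in the thalamus 0.75, and over the genes higher in the hippocampus -0.999. At least 2-fold differences were found for 4497 genes (26.9%), of which 1745 (10.4%) were higher in the thalamus and 2752 (16.4%) in the hippocampus. From 4-fold upwards, 565 genes were higher in the thalamus and 957 in the hippocampus, from 16-fold 155 and 314, and from 64-fold 29 and 91. With genes whose counts keep a constant ratio taken as 1, the last counts were 28 and 77. More genes stood on the hippocampal side at each of these sizes. Without the 73 genes, 1729 genes were at least 2-fold higher in the thalamus and 2885 in the hippocampus, and 29 and 70 at least 64-fold. With only the hippocampal libraries of rats 4 and 5 left out (and no block), 5030 genes were higher in the thalamus and 5102 in the hippocampus, 1850 and 2876 of them at least 2-fold, and 36 and 94 at least 64-fold. With rats 4 and 5 left out in both areas, 1771 and 2981 genes differed at least 2-fold, and 32 and 114 at least 64-fold. The excess on the hippocampal side at 2-fold and at 64-fold was thus present with and without these genes and rats (the 4-fold and 16-fold counts were not rerun), while the number of called genes of any size fell to 4019 and 4583 with 3 rats. Column names of the hippocampal table give 1 FC number to rats 2, 3 and 4 and another to rat 5. Within rats 2, 3 and 4, 4275 genes were higher in the thalamus and 4641 in the hippocampus, and 1843 and 2888 of them at least 2-fold.

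**Figure D2:**
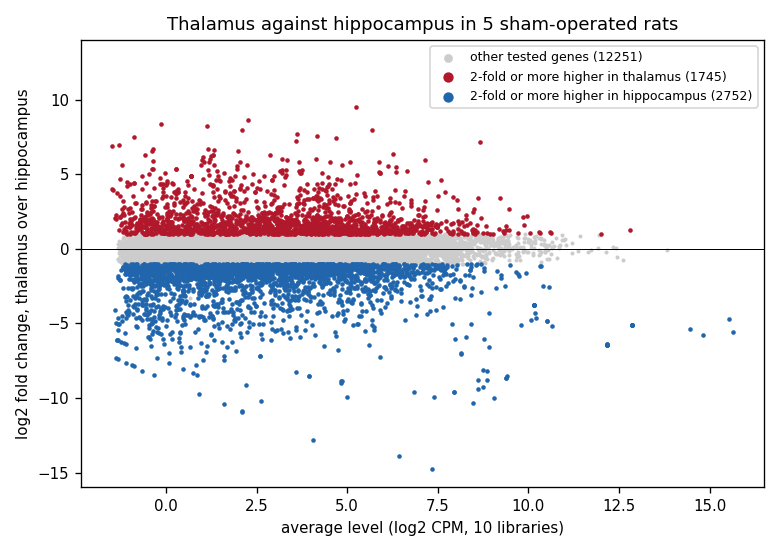
log2 fold change of the thalamus over the hippocampus in the 5 sham-operated rats (vertical axis) against the average level over the 10 libraries in log2 CPM (horizontal axis). Each point is 1 of the 16748 tested genes, red where it was at least 2-fold higher in the thalamus (1745 genes), blue where it was at least 2-fold higher in the hippocampus (2752 genes) at an adjusted p under 0.05, and grey otherwise. The blue points reach farther from 0 than the red ones.

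The differences were found at every level of expression. The tested genes were split by average level into 3 groups of equal size. In the low group of 5583 genes (0.358 to 5.71 CPM) 58.9% were called, in the middle group (up to 25.9 CPM) 66.4%, and in the high group 70.1%. The size of the called differences went the other way, with a median absolute log2 fold change of 1.19, 0.79 and 0.70 from the low to the high group. These medians cover called genes only, and at low levels a difference must be larger to pass. Whether size depends on level apart from this was not tested. In the low group, 703 genes were at least 2-fold higher in the thalamus and 1313 in the hippocampus. In the middle group these counts were 534 and 822, and in the high group 508 and 617. Genes at least 2-fold higher in the hippocampus were thus more numerous at each level, and the gap was narrowest among the most abundant genes.

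With all genes counted, the hippocampus gave a larger share of its reads to the genes that set it apart than the thalamus did. The shares were similar only once the 73 genes were left aside, none of which was called higher in the thalamus. The genes at least 2-fold higher in the thalamus took 13.8% to 14.5% of the counts in the 5 thalamic libraries. In the hippocampus they took 4.31%, 4.46%, 4.33%, 2.29% and 2.45% in rats 1 to 5, and in the sham cortex 4.57% to 6.13%. The genes at least 2-fold higher in the hippocampus took 29.3% to 62.9% of the hippocampal and 4.51% to 5.87% of the thalamic counts. The upper end of this hippocampal range comes from the libraries with the large share on few genes. As a share of the counts outside the 73 genes, the remaining genes of this group took 14.3% to 15.1% in every hippocampal library, 3.76% to 4.64% in the thalamus and 10.1% to 11.1% in the sham cortex. On the same base, the genes of the thalamus took 13.9% to 14.8% of the thalamic, 5.30% to 5.45% of the hippocampal and 7.08% to 7.501% of the cortical counts. On this base, hippocampal rats 4 and 5 marked the ends of both hippocampal ranges, but within 1 percentage point of rats 1 to 3. The genes were chosen on these libraries, so the thalamic and hippocampal shares are a description and were not tested.

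Few genes were present in one area and close to absent from the other. At least 1 CPM was reached in all 5 thalamic libraries by 14015 genes and in all 5 hippocampal libraries by 14427. Both areas shared 13426 of them, which is 95.8% of the thalamic and 93.1% of the hippocampal genes. Of the others, 589 reached 1 CPM in all thalamic but not in all hippocampal libraries, and 1001 the reverse. A stricter rule asked for at least 1 CPM in every library of one area and under 0.1 CPM in every library of the other. It was met by 8 genes for the thalamus, with a median level of 4.01 CPM and a highest of 9.02 CPM, and by 33 genes for the hippocampus, with a median of 2.83 CPM and a highest of 323 CPM. Of the 8, 2 had identical counts in all 10 libraries and may stand for 1 signal. Of the 33, 4 had no count in any sham thalamic library, and 3 belonged to the 73 genes. On average, 3 counts in a library stand for 0.0951 CPM in the thalamus and 0.1465 CPM in the hippocampus. Absence below these levels was not detectable. The limit of 0.1 CPM lies between them, so fewer stray counts were allowed in the hippocampus than in the thalamus. The rule was thus harder to meet for genes of the thalamus, which bears on the 8 against 33 genes. ENSRNOG00000012478, described below, failed it on 6 and 3 counts in the hippocampus of rats 1 and 5. With fewer libraries the rule is easier to meet, and the number of genes depended on the libraries. It rose to 14 for the thalamus without rat 3 in both areas and to 55 for the hippocampus without rat 5, and to 14 and 64 without rats 4 and 5 in both areas. With only the hippocampal libraries of rats 4 and 5 left out, it was 14 and 43. Within rats 2, 3 and 4, it was 22 and 71.

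In the cortex of the same rats, the area-restricted groups had unlike levels. Of the 8 thalamic genes, none reached 1 CPM in all 5 sham cortical libraries, 1 stayed under 0.1 CPM in all of them and 7 lay between, with a median of 0.114 CPM. Of the 33 hippocampal genes, 28 reached 1 CPM in all 5 cortical libraries, and the median cortical level was 3.20 CPM. The other 5 lay between these limits. Most genes found only in the hippocampus of this comparison were thus also present in the cortex, and those found only in the thalamus were low there.

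**Figure D3:**
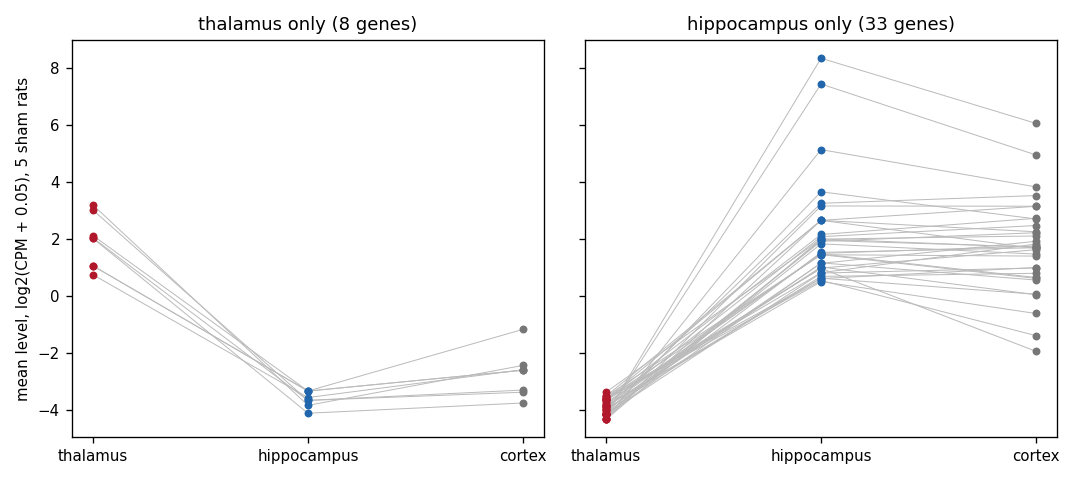
Mean level in the thalamus, hippocampus and cortex of the 5 sham-operated rats, as log2(CPM + 0.05), for the 8 genes found only in the thalamus (left) and the 33 genes found only in the hippocampus (right) of this comparison. Each line is 1 gene, and cortical levels were scaled over all 30 libraries. Levels of the thalamic genes stay low in the cortex (median 0.114 CPM), whereas most of the hippocampal genes return to about their hippocampal level there (median 3.20 CPM).

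The same held, less strictly, for the larger groups. Of the 565 genes at least 4-fold higher in the thalamus, the sham cortex lay nearer to the hippocampus for 445 (78.8%), and of the 957 genes at least 4-fold higher in the hippocampus it lay nearer to the hippocampus for 774 (80.9%). Among all tested genes, the cortex lay nearer to the hippocampus for 11434 (68.3%). The thalamic genes had a median level of 3.32 log2 CPM in the thalamus, -0.09 in the hippocampus and 1.003 in the cortex. The hippocampal genes had a median of -0.24 in the thalamus, 3.11 in the hippocampus and 2.58 in the cortex. By the paper's methods, the cortex and hippocampus were read on the same instrument, so this likeness cannot be told apart from the sequencing.

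The 12 genes with the largest difference in each direction, at 5 CPM or more in the higher area and with no overlap between the areas, covered a wide range. In the thalamic direction their log2 fold changes ran from 6.27 to 9.49 (largest adjusted p = 5.37e-08, edgeR), 4 of them reached 1 CPM in all sham cortical libraries, and none belonged to the 73 genes. In the hippocampal direction, fitted log2 fold changes ran from -14.78 to -9.59 (largest adjusted p = 0.000162, edgeR). Of these 12, 9 belonged to the 73 genes, 10 reached 1 CPM in all cortical libraries and 4 had no count in the thalamus, where a fitted fold change depends on the small count that edgeR adds.

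ENSRNOG00000012478 had the largest difference in favour of the thalamus. Its level was 57.8, 78.3, 68.2, 64.4 and 104.1 CPM in the thalamus of rats 1 to 5, and 0.198, 0.0382, 0.0346, 0 and 0.198 CPM in the hippocampus, where all 5 libraries together held 11 counts. Every thalamic library lay far above every hippocampal one, and rat 5 was the highest in the thalamus. The means were 74.6 ± 18.1 and 0.0939 ± 0.0965 CPM (SD, n = 5 each), and edgeR gave a log2 fold change of 9.49 ± 0.29 (standard error) with an adjusted p of 1.99e-09. It stayed between 9.19 and 10.23 with single rats left out, the highest without rat 1, and was 11.05 within rats 2, 3 and 4. The sham cortex was as low as the hippocampus, from 0.0405 to 0.155 CPM (median 0.108).

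ENSRNOG00000030217 was the next in this direction and the most abundant of the 8 genes found only in the thalamus. Its thalamic level was 7.16, 15, 6.94, 5.87 and 10.1 CPM in rats 1 to 5 (mean 9.02 ± 3.70, SD, n = 5). In the hippocampus it was 0.0331 and 0.0661 CPM in rats 1 and 5, from 1 count each, and 0 in the other three rats. Rat 2 had the highest thalamic level, and the areas did not overlap. The ratio of the pooled counts, scaled for library size, was 513.7 with a 95% counting interval from 142 to 4246, which covers counting error only (adjusted p = 1.37e-08, edgeR). Its fitted log2 fold change was 8.68 with all rats, 8.05 without rat 2 and 11.04 within rats 2, 3 and 4, where no hippocampal library held a count. The sham cortex held 0.0809 to 0.194 CPM.

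ENSRNOG00000046768 had the largest difference in favour of the hippocampus and is 1 of the 73 genes. Its hippocampal level was 78.8, 89.9, 83.0, 691.3 and 672.4 CPM in rats 1 to 5, and in the thalamus a single count, in rat 2 (0.0308 CPM), was found in all 5 libraries. Rats 1 to 3 lay close together in the hippocampus, and rats 4 and 5 were several times higher. The hippocampal mean was 323 ± 328 CPM (SD, n = 5), and the ratio of the pooled counts, scaled for library size, was 37510 with a 95% counting interval from 6732 to 1482000 (adjusted p = 4.47e-10, edgeR). The fitted log2 fold change was -14.78 with all rats, -12.54 without rats 4 and 5, and -16.28 without rat 2, which held the only thalamic count. The size of the difference thus depended on these libraries, and its direction was the same in each fit. The sham cortex had 41.0 to 120.4 CPM (median 61.9), a range that covers hippocampal rats 1 to 3.

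ENSRNOG00000006408 ranked 4 in the hippocampal direction and was the first in that order outside the 73 genes, a choice made after its values were seen. Its hippocampal level was 8.76, 6.77, 9.68, 11.1 and 7.998 CPM in rats 1 to 5 (mean 8.85 ± 1.63, SD, n = 5), from 996 counts. No thalamic library held a count. Taking 3 counts per thalamic library as the limit, which is 0.0951 CPM on average, the level was at least 93.1-fold higher in the hippocampus (adjusted p = 4.51e-07, edgeR). Rats 4 and 5 did not stand apart from the others at this gene. The sham cortex had 7.28 to 10.8 CPM (median 8.53). With all libraries of the series scaled together, this range overlaps that of the hippocampus, 7.38 to 11.7 CPM. For each of these 4 identifiers, no other gene had counts that were identical or stayed in a constant ratio (within 1.5-fold) over the 10 libraries.

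**Figure D4:**
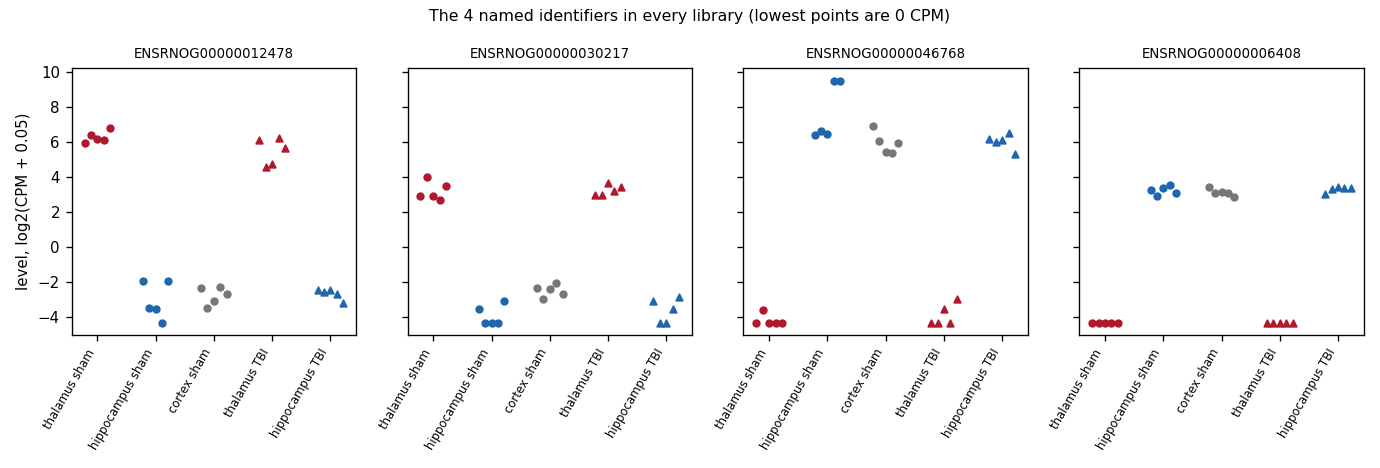
Level of the 4 identifiers in each thalamic, hippocampal and sham cortical library, as log2(CPM + 0.05), with circles for sham-operated rats and triangles for rats with TBI, in the order of the rat numbers within a group. Here all libraries of the series were scaled together, so values differ slightly from those scaled within the sham rats. The 2 identifiers on the left are high in the thalamus alone, at 6.42 to 114 CPM in the sham rats on this scale, and the 2 on the right are near 0 in the thalamus alone.

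The rats with TBI gave a second set of thalamic and hippocampal libraries from other animals, with the same possible difference in sequencing. In them, 10843 of 17267 genes (62.8%) differed between the areas, with 5244 (30.4%) higher in the thalamus and 5599 (32.4%) in the hippocampus (edgeR, adjusted p under 0.05). At least 2-fold differences were found for 4689 genes (27.2%), 1879 (10.9%) in the thalamic and 2810 (16.3%) in the hippocampal direction. The libraries of the areas did not overlap for 8613 genes (49.9%). From 64-fold upwards there were 24 and 84 genes. The hippocampal side was again the larger one, here without any hippocampal library like those of rats 4 and 5. The biological coefficient of variation was 0.180.

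The genes were largely the same. Of the 10875 genes called in the sham-operated rats and tested in both groups, 9067 (83.4%) were called in the same direction in the rats with TBI, which is 85.9% of the 10550 genes called there. The calls were opposite for 6 genes. Of 4462 genes with at least 2-fold differences in the sham-operated rats, 4276 (95.8%) were called in the same direction in the rats with TBI, 3576 (80.1%) at 2-fold or more, and 0 in the opposite direction. Across the 16701 genes tested in both, the log2 fold changes had a Pearson correlation of 0.956 and a Spearman correlation of 0.928, where genes are not independent replicates and the same areas and the same sequencing are set against each other in both groups. The groups share no library, but the hippocampal libraries labelled rat 3 and rat 8 are each most like the other animal. Without both of these rats, 8200 genes were called in the same direction in both groups.

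**Figure D5:**
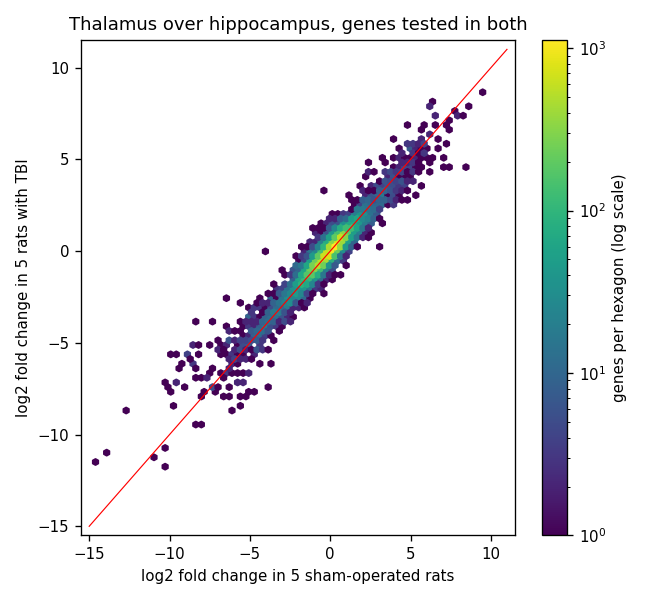
log2 fold change of the thalamus over the hippocampus in the rats with TBI (vertical axis) against the sham-operated rats (horizontal axis) for the 16701 genes tested in both. Color gives the number of genes per hexagon on a log scale, and the red line marks equal values. Genes lie along the line, with a Pearson correlation of 0.956. On the hippocampal side, ENSRNOG00000046768 lay farther from 0 in the sham-operated rats (-14.78) than in the rats with TBI (-11.43). ENSRNOG00000006408 went slightly the other way (-10.92 against -11.22).

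The genes with the widest differences held as well. All 29 genes at least 64-fold higher in the sham thalamus were called in the same direction in the rats with TBI (against 30.4% of all tested genes). Of the 91 on the hippocampal side, 89 were tested there, and all 89 were called in the same direction (against 32.4%). Of these groups, 5 of 29 thalamic and 72 of 91 hippocampal genes reached 1 CPM in all sham cortical libraries, and 37 of the 91 belonged to the 73 genes. The 8 genes restricted to the thalamus and the 33 restricted to the hippocampus were all called in the same direction in the rats with TBI, but the strict rule was met again there by 3 and 19 of them.

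The named identifiers kept their pattern in the rats with TBI. ENSRNOG00000012478 had 25.9 to 80.2 CPM in the thalamus and 0.0653 to 0.149 CPM in the hippocampus, and edgeR gave a log2 fold change of 8.66 ± 0.25 (standard error) with an adjusted p of 1.03e-09. ENSRNOG00000030217 had 8.64 to 13.9 CPM against 0 to 0.0979 CPM. ENSRNOG00000046768 had 43.4 to 98.9 CPM in the hippocampus, with no library near sham-operated rats 4 and 5, and 3 counts in all thalamic libraries together. ENSRNOG00000006408 had 8.81 to 12.0 CPM in the hippocampus and again no count in the thalamus. Whether the difference between areas depended on the treatment was tested by an interaction term of treatment with area, with the rat as a block, in edgeR. Of 17617 genes, 0 had an adjusted p under 0.05 (smallest 0.0545) and 1993 an unadjusted p under 0.05. Without rats 3 and 8, whose hippocampal libraries were most like the other animal, 0 of 17679 genes passed in edgeR, with 1062 at an unadjusted p under 0.05. Without rats 4 and 5, 0 of 17979 passed, with 1200 at an unadjusted p. The count depended on single rats, since 502 genes passed without TBI rat 6, and 1 gene each without TBI rats 7 and 9. With all 10 rats, the adjusted p of the interaction for the 4 identifiers was 0.645, 0.763, 0.422 and 1 in the order given.

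Within the sham-operated rats, each animal showed the pattern found in the others. When genes with at least 2-fold differences were taken from 4 rats (edgeR), 98.5% to 99.3% of the 1586 to 1788 thalamic genes and 97.1% to 99.3% of the 2690 to 2956 hippocampal genes had the same sign in the rat left out. The median log2 difference in the left-out rat was 1.39 to 1.72 for the thalamic genes, where the other rats gave 1.57 to 1.60. For the hippocampal genes it was -1.78 to -1.38, where the others gave -1.63 to -1.61. Sign was held least often by the hippocampal genes in rat 1, at 97.1%.

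Libraries of an area were far more alike than libraries of a rat. The Pearson correlation of log2 CPM across genes was 0.972 to 0.990 between thalamic libraries (median 0.982, 10 pairs) and 0.980 to 0.988 between hippocampal libraries (median 0.987, 10 pairs). Between the areas it was 0.842 to 0.882 (median 0.865, 25 pairs), and for the 5 pairs from the same rat 0.858 to 0.882 (median 0.864). The first principal component held 82.6% of the variance and put all thalamic libraries on one side and all hippocampal libraries on the other. The second held 4.71% and spread the thalamic libraries, with rats 2 and 5 at -41.6 and -20.5 and rats 1, 3 and 4 at 13.5 to 29.4, while the hippocampal libraries lay between -12.1 and 9.495.

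The spread between rats was wider in the thalamus. The median standard deviation of log2 CPM over the 5 rats was 0.252 in the thalamus and 0.183 in the hippocampus, and it was the larger of the pair in the thalamus for 10819 genes (64.6%). It exceeded 1 for 154 genes in the thalamus and 116 in the hippocampus. Few genes were called for a difference between rats over both areas. With so few libraries per rat, this does not show that such genes are rare. The rat term of the paired fit was called for 9 of 16748 genes (0.0537%, edgeR, with 1013 at an unadjusted p under 0.05), and for 9 of 16765 without rat 3 (987 at an unadjusted p). In the rats with TBI it was called for 0 of 17267 genes in edgeR, with 538 at an unadjusted p under 0.05.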

How the data were processed

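mRNA of the thalamus and hippocampus was sequenced in 5 sham-operated rats and 5 rats with TBI, and the sham cortex was used for comparison. Per the paper, poly-A RNA was made into libraries with a NEBNext kit and reads were aligned to RN5 (Rnor_5.0) with STAR. The submitters' processing notes also name DESeq2 and R 3.1.0. The authors deposited raw read counts by Ensembl gene, with no normalization, in 3 tables of 26404 genes. The counting tool and the use of strand are not given in the sources used here, so genes that overlap or have near-identical copies are uncertain (99 of the 16748 tested had counts identical to another gene). All columns were matched to samples by name, and 0 were left unused.

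The software was edgeR 4.0.16, DESeq2 1.42.0 and limma 3.58.1 in R 4.3.3. Genes passed edgeR's filterByExpr (minimum count 10, minimum total 15), libraries were scaled by TMM, and the areas were compared by the robust quasi-likelihood test with the rat as a block, Benjamini-Hochberg adjustment over all tested genes and a threshold of 0.05. CPM values were scaled within the libraries of a fit, and cortical levels and the comparison with the cortex over all 30 libraries. A prior count of 3 was added for log2 CPM. By the labels, the pairs come from the same animals. The deviations of thalamic and hippocampal libraries of the same rat correlated at -0.0266, 0.0686, 0.0284, 0.0215 and 0.247 in rats 1 to 5. The procedure was tested on simulated data in which few genes were changed, evenly in both directions. That setting does not cover a contrast in which most genes differ.

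The rule for naming was the 12 genes with the largest difference in each direction (adjusted p under 0.05, no overlap between areas, 5 CPM or more). As the identifiers could not be paired with names in the RefSeq gene table used here (0 of 47357 rows hold an Ensembl identifier), 2 per direction are given, and gene lists, cell markers and sequences were not analysed here. The comparison and its rules were chosen with earlier results of these data known. Alternatives were DESeq2, other scalings (RLE, upper quartile), no filter, limma's voom, no block, each rat left out, and hippocampal rats 3, 4 and 5 left out. The fits within rats 2, 3 and 4, without rats 4 and 5 in both areas, and without the 73 genes, and the interaction without single rats, without rats 3 and 8 and without rats 4 and 5, were added after seeing the data.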

Additional observations from a re-analysis of the deposited data

Results flagged for a closer look

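In the sham thalamus, ENSRNOG00000046768 had 0.0308 CPM in rat 2, from 1 count, and 0 in the other 4 rats, which makes the gap between the highest library and the next equal to the whole range (ratio 1, above Dixon's critical value of 0.71 for 5 samples). Of 30 groups of values looked at in this way, this was the only one past the limit, and chance alone passes about 1 in 20 groups. A single count does not set rat 2 apart at this depth.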

How the results depend on the processing

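Over 11 alternatives that left out no single rat, 4019 to 5620 genes were higher in the thalamus and 4499 to 6618 in the hippocampus of the sham-operated rats, and 1611 to 1928 and 2687 to 4005 were at least 2-fold higher. Leaving out single rats, the ranges were 4695 to 5063, 5198 to 5626, 1590 to 1797 and 2697 to 2964. Without the pairing by rat (no block), the counts were 5555 and 5508, and 1751 and 2687 at 2-fold. In the rats with TBI, leaving out each rat gave 4425 to 5394, 4894 to 5449, 1718 to 2161 and 2701 to 3010, and 8042 to 8314 genes were then called in the same direction in both groups. No block gave 5527 and 5681 there. The number of genes whose difference between areas depended on treatment ranged from 0 to 502 without single rats, with 502 without TBI rat 6. None of the counts of genes called, or called at 2-fold, between the areas moved by more than 1.5 times. The 64-fold counts did, with 19 genes in the thalamic direction under voom (29 in the main test) and 145 in the hippocampal direction without a filter (91 in the main test). The genes restricted to 1 area ranged from 8 to 14 (thalamus) and from 37 to 55 (hippocampus) without single rats, and were 23 and 50 without hippocampal rats 3, 4 and 5. The rule for restricted genes is easier to meet with fewer libraries, and without a filter 24532 genes were tested against 16748. Whether particular rats or genes mattered beyond this was not tested. Without a filter, the median log2 fold change of all genes was -0.29, and under the other scalings it lay between -0.04 and 0.01. The 4 identifiers kept their direction and an adjusted p of at most 4.5e-05 in edgeR, DESeq2 and voom under the alternatives in which they were tested. In the sham-operated rats, these 4 identifiers had 0 to 6 counts per library in the lower area, which limits the size of such wide differences.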
